A study of Mus musculus with 18 samples.

Results

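A set of 10 genes, most of them of cell-cell and cell-matrix adhesion, with the vimentin gene and a pair of repressor genes, was followed in mouse embryonic stem cells (ESCs). They were Cdh1, Cdh2, Cdh3, Epcam, Vim, Fn1, Itga1, Efnb2, Zeb1 and Zeb2, taken by gene symbol from the array annotation, and they make up 10 of the 18194 genes and 27 of the 45101 probe sets in the deposited table. Every member had at least 1 probe set, and each is described by its brightest probe set on average across the 18 samples. Other probe sets of a gene are given beside its main changes. Levels are log2 values from robust multi-array averaging (RMA), so 1 unit is a factor of 2. A level depends on its probes and cannot be set against that of another gene.

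Each of the 18 samples was 1 Affymetrix array. All lines carry the labels 129SV, male and EBRTcH3 ESC, and all were grown in conventional medium with serum and LIF except where 2i is named. Parental ESCs in serum had 1 sample at day 2 and 2 samples at day 5 of LY294002, an inhibitor of PI3K, and 2 untreated samples, here replicate 1 and replicate 2. ESCs overexpressing wild-type c-Myc, and ESCs overexpressing the T58A mutant of c-Myc, each had 1 sample at day 2, 1 at day 5 and 1 untreated. The 2i medium, which blocks MEK and GSK3, was used for 1 parental sample at day 5 of LY294002 and for 1 without it. Max-null ESCs had 1 sample at day 4 and 1 at day 6 of doxycycline (Dox), which per the labels ablates expression of Max, the partner of Myc, and 1 untreated sample. Max-null ESCs overexpressing p110 alpha, a catalytic subunit of PI3K, had 1 sample with Dox, whose day is not given, and 1 without. The labels do not say how the cDNAs were driven, whether a line was 1 clone, or whether replicates were separate cultures, so p-values measure the spread between these samples, which may be technical.

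Classical cadherins hold cells together through calcium-dependent binding outside the cell and through catenins, which tie them to actin, inside it. Cdh1 encodes E-cadherin, the main cadherin of ESCs and epithelia, Cdh2 encodes N-cadherin of neural and mesenchymal cells, and Cdh3 encodes P-cadherin. In a cadherin switch, as in gastrulation and the epithelial-to-mesenchymal transition (EMT), cells lose E-cadherin as they gain N-cadherin, with vimentin and fibronectin as usual companions and the zinc finger repressors Zeb1 and Zeb2 among the factors that silence Cdh1. In RefSeq (GRCm38.p6) 8 members lie at chr8:106603350-106670247 (Cdh1), chr8:106510852-106556911 (Cdh3), chr17:87635979-87651127 (Epcam), chr2:13574311-13582826 (Vim), chr1:71585473-71653280 (Fn1), chr13:114958079-115101964 (Itga1), chr8:8617235-8661242 (Efnb2) and chr2:44983512-45117442 (Zeb2).

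Zeb and Snail repressors bind E-boxes of the letters CAGGTG, so promoters of some members whose RNA moved with LY294002 are shown. The windows are RefSeq sequences of GRCm38.p6 that run from 250 bases before to 50 bases after the gene start, 5′ to 3′ on the gene's strand, with CAGGTG and its reverse complement CACCTG in capitals. Epcam (chr17:87635729-87636028, plus strand) holds 2 matches, which begin 187 and 19 bases before the start. Efnb2 (chr8:8661193-8661492, minus strand) holds 1, which begins 167 bases before the start, and Itga1 (chr13:115101915-115102214, minus strand) holds none.
Epcam: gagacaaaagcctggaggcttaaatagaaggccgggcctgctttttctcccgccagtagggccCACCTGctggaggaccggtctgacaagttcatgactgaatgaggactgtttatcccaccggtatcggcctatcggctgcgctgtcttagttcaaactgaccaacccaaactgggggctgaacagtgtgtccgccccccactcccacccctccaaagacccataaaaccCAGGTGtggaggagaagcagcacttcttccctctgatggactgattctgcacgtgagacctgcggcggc
Efnb2: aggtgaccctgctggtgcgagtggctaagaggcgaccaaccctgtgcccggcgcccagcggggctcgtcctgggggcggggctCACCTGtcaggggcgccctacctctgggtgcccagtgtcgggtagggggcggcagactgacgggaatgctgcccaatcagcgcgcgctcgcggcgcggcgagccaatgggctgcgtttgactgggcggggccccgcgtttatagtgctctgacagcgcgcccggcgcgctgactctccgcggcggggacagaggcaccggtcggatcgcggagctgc
Itga1: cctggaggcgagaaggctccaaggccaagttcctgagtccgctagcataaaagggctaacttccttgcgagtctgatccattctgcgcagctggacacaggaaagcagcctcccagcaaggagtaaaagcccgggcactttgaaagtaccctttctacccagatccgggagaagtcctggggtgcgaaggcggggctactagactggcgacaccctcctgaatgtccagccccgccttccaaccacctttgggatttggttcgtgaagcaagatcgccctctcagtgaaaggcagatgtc
The windows of Vim and Zeb2 hold no match either, so of 8 windows of 5 members (4 of them of Zeb2) 2 hold at least 1, near the share of all 32851 windows, of which 20.2% hold at least 1 and 2.88% hold 2 or more. Cdh1, Cdh3 and Fn1 had no window to scan, and Cdh2 and Zeb1 were left out of the scan. A match is a run of letters and not a measured binding site.

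The 8 ESC markers were above the level filter of 4.64, the 40th percentile of the table, on all 18 arrays. There were 2 sets of arrays that stood apart in scale: the median level was 5.03 to 5.05 in parental replicate 1 and the 2i samples and 5.31 to 5.52 on the remaining 14 arrays. Whether these were normalized in separate runs no label states, so levels are set against each other within one of these sets unless the crossing is named. Max-null ESCs at Dox day 6 had the highest median, 5.52, and the highest lower quartile, 4.08. Max, the gene to be ablated, read 6.89 on Dox day 4 and 7.18 on day 6 in Max-null ESCs, against 7.09 untreated, and 6.33 with Dox and 6.70 without in the p110 alpha line. Its probe set was thus no lower on Dox day 6 than untreated, though all 5 samples of these lines were below the 8.17 to 8.71 of the other 13. Whether the probe set covers the ablated part is not stated, so it does not settle whether Max was lost with Dox. The Myc probe set did not show the labelled overexpression: it read 7.51 in untreated c-Myc wild-type and 6.99 in untreated T58A ESCs, against 7.43 in untreated parental replicate 2, and 9.60 and 9.55 at day 5, against 9.60. Pik3ca, the gene of p110 alpha, was at 8.82 without Dox in the line labelled as overexpressing it, against 8.50 in untreated Max-null ESCs and 8.86 in untreated parental replicate 2. With Dox it read 8.27 in the p110 alpha line, against 7.39 and 7.23 in Max-null ESCs. Whether these probe sets read the introduced cDNAs is not stated, so the names c-Myc wild-type, T58A, p110 alpha and Dox stand for the samples' labels.

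LY294002 raised E-cadherin and N-cadherin RNA together in serum, so a cadherin switch in the sense of Cdh1 loss with Cdh2 gain was not seen. Both genes were higher in 7 of 7 serum samples with LY294002 than in their own untreated samples. Each day 2 sample shares its untreated sample with a day 5 sample, so these are not 7 independent changes. The smallest Cdh1 change was 0.12, in parental replicate 1. Cdh3, Epcam, Itga1 and Efnb2 were also higher in 7 of 7, though Cdh3 by only 0.0016 in parental replicate 1. Zeb1 was lower in 7 of 7. Fn1 was lower in 6 of 7, by 0.36 at most, and Vim and Zeb2 moved in mixed directions. The plot of changes by treated sample shows the same split.

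**Figure D1:**
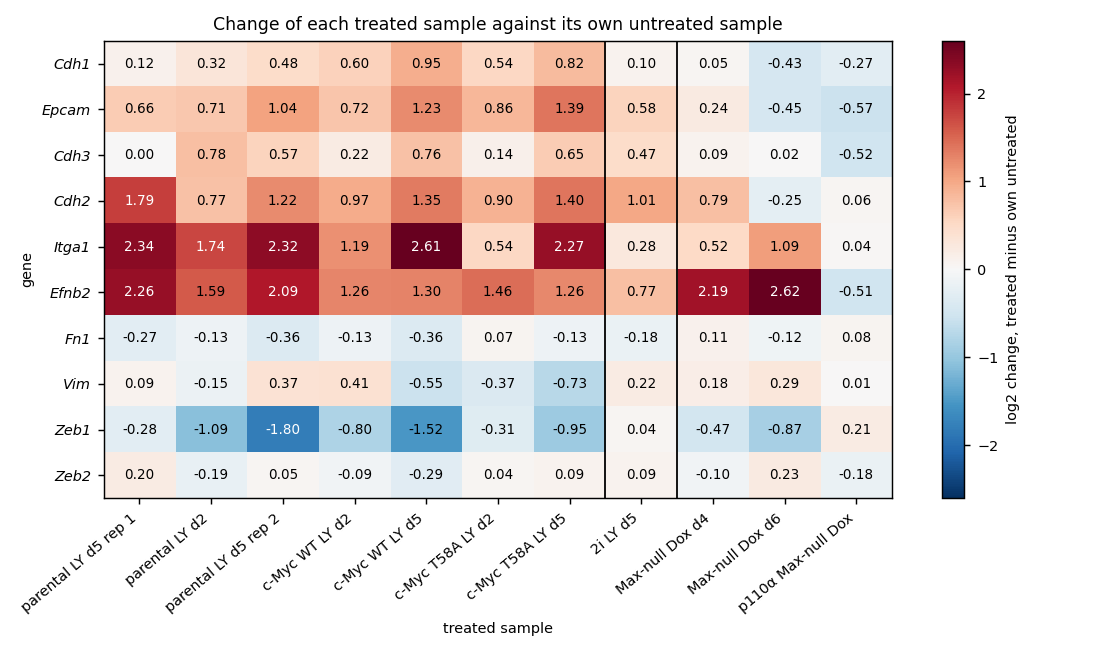
Log2 change of each treated sample minus its own untreated sample (columns) for the 10 genes (rows), red for higher and blue for lower, with the value printed in each cell and vertical lines that part serum LY294002, 2i LY294002 and Dox samples. Each cell is 1 sample against 1 sample. The Efnb2, Itga1 and Cdh2 rows are red across serum LY294002, the Zeb1 row is blue there, and the p110 alpha Dox column is pale, between -0.57 (Epcam) and 0.21 (Zeb1).

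For the LY294002 course, limma was run on 9 serum samples, 3 each of the c-Myc wild-type, T58A and parental replicate 2 ESCs, with a block for line and 13421 genes. At day 5, 8 of 10 members passed an adjusted p of 0.05 against untreated, 6 higher (Cdh1, Cdh2, Cdh3, Epcam, Itga1 and Efnb2) and 2 lower (Fn1 and Zeb1). In the same test 44.1% of all genes passed, 25.7% higher and 18.5% lower. The median change of the members was 0.71, and that of all genes 0.05. At day 2, 6 members passed, 5 higher (Cdh1, Cdh2, Epcam, Itga1 and Efnb2) and 1 lower (Zeb1), where 30.5% of all genes passed, 18.3% higher and 12.3% lower. In single samples the members at least 2-fold higher at day 5 numbered 4 of 10 in each line, against 4.13% of genes in c-Myc wild-type, 3% in T58A and 6.17% in parental ESCs, and Zeb1 was 2-fold lower in c-Myc wild-type and parental ESCs, against 3.32% and 4.05%. At day 2 they numbered 2 in c-Myc wild-type (1.77% of genes), 1 in T58A (1.25%) and 2 in parental ESCs (3.66%), where Zeb1 was 2-fold lower (2.71%). Itga1 was below the level filter in every untreated sample. It entered these counts and the member median only through its treated samples, so it supports none of them.

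Cdh1 had levels of 11.29 in untreated, 11.89 in day 2 and 12.24 in day 5 c-Myc wild-type ESCs, 11.21, 11.75 and 12.03 in T58A ESCs, and 12.01, 12.33 and 12.49 in parental replicate 2. The order of days was the same in the 3 lines, though untreated parental ESCs overlapped the treated c-Myc samples. The change was 0.48 ± 0.10 at day 2 (SE, 3 lines; limma adjusted p = 0.00942) and 0.75 ± 0.10 at day 5 (adjusted p = 0.000873), a factor of 1.68. The day 2 call was lost without the c-Myc wild-type line (0.43, adjusted p = 0.107) and without the T58A line (0.46, adjusted p = 0.0643).

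Epcam encodes an epithelial adhesion protein that binds the same protein on neighbouring cells and is abundant in ESCs. Its levels on days 0, 2 and 5 were 10.95, 11.68 and 12.18 in c-Myc wild-type, 10.62, 11.47 and 12.01 in T58A and 11.53, 12.24 and 12.57 in parental replicate 2 ESCs. Each line rose at each step. The change reached 1.22 ± 0.08 at day 5, a factor of 2.33 (adjusted p = 0.000117), and the second Epcam probe set gave 0.84 ± 0.13 (adjusted p = 0.00204 over 24374 probe sets).

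Cdh3 read 6.17, 6.39 and 6.93 on days 0, 2 and 5 in c-Myc wild-type ESCs, 5.96, 6.10 and 6.62 in T58A ESCs and 6.25, 7.02 and 6.82 in parental replicate 2. Parental ESCs had their highest value at day 2 and the c-Myc lines at day 5. The day 5 change of 0.66 ± 0.15 passed (adjusted p = 0.0091), but not without the c-Myc wild-type line (0.61, adjusted p = 0.0725), and the day 2 change of 0.38 ± 0.15 did not (adjusted p = 0.0923). The other Cdh3 probe set was never above the level filter.

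Cdh2 (chr18:16588877-16809246) read 7.12, 8.10 and 8.48 on days 0, 2 and 5 in c-Myc wild-type ESCs, 6.69, 7.59 and 8.09 in T58A ESCs, and 8.38, 9.15 and 9.60 in parental replicate 2. Untreated parental ESCs were thus within the range of the treated c-Myc samples, but each line stepped up by a like amount. The change was 0.88 ± 0.07 at day 2 (adjusted p = 0.000515) and 1.32 ± 0.07 at day 5, a factor of 2.50 (adjusted p = 7.29e-05). The second Cdh2 probe set gave 1.07 and 1.64.

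**Figure D2:**
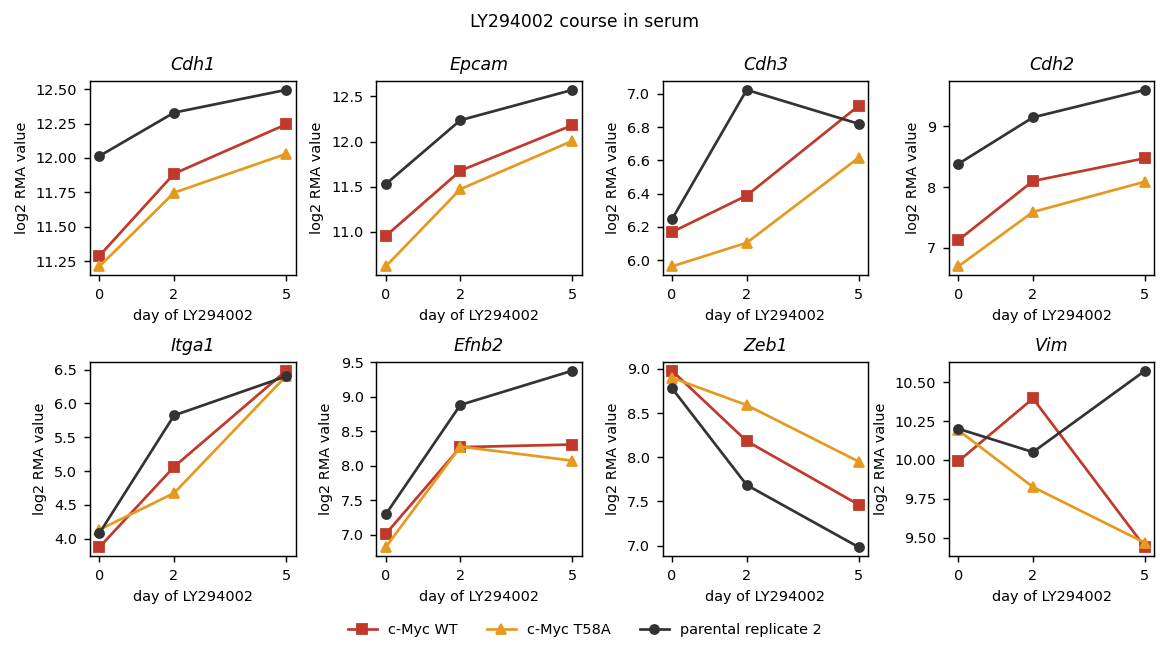
Log2 RMA values of 8 members on days 0, 2 and 5 of LY294002 in c-Myc wild-type (squares), c-Myc T58A (triangles) and parental replicate 2 ESCs (circles), 1 array per point with no error bar, each panel on its own scale. Cdh1, Epcam, Cdh2 and Itga1 are higher at each step in the 3 lines, Zeb1 is lower at each step, and Vim ends at 10.58 in parental but at 9.44 and 9.47 in c-Myc wild-type and T58A ESCs.

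Itga1 encodes the alpha 1 chain of a collagen and laminin receptor. Its RNA lay below the level filter in all 7 untreated samples, at 3.07 to 4.14, and above it in 7 of 7 serum samples with LY294002. The levels on days 0, 2 and 5 were 3.87, 5.06 and 6.49 in c-Myc wild-type, 4.13, 4.68 and 6.41 in T58A and 4.08, 5.82 and 6.40 in parental replicate 2 ESCs. The lines lay apart at day 2 and between 6.40 and 6.49 at day 5. The change was 1.16 ± 0.22 at day 2 (adjusted p = 0.00768), lost without the c-Myc wild-type line (1.14, adjusted p = 0.0715), and 2.40 ± 0.22 at day 5 (adjusted p = 0.00025). Untreated Itga1 is not above the filter, so these are differences from background and no measured fold. In the counts above and below Itga1 enters only through its treated samples, where it is high, so it supports none of them.

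Efnb2 encodes ephrin-B2, a membrane ligand of Eph receptors that signals on cell contact. It read 7.01, 8.27 and 8.31 on days 0, 2 and 5 in c-Myc wild-type, 6.82, 8.28 and 8.07 in T58A and 7.29, 8.88 and 9.38 in parental replicate 2 ESCs. All 6 treated samples were above all 3 untreated ones. The change was 1.44 ± 0.16 at day 2 (adjusted p = 0.00111) and 1.55 ± 0.16 at day 5, a factor of 2.92 (adjusted p = 0.00039). Another Efnb2 probe set gave 1.45 and 1.71, while 1 more, above the filter in 5 of 18 samples, gave 0.21 (adjusted p = 0.2) and 0.41 (adjusted p = 0.0198).

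Vim, which encodes the intermediate filament vimentin, did not pass at either day. It read 9.99, 10.40 and 9.44 on days 0, 2 and 5 in c-Myc wild-type, 10.19, 9.83 and 9.47 in T58A and 10.20, 10.05 and 10.58 in parental replicate 2 ESCs. The lines had no common order, and the day 5 change was -0.30 ± 0.26 (adjusted p = 0.386). Without parental replicate 2 at day 5 it was -0.67 (adjusted p = 0.0255).

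Fn1, the fibronectin gene, was near the top of the array's range at 12.04 to 12.89 in all 18 samples. Its day 5 change was -0.28 ± 0.08 (adjusted p = 0.0206), a fall that was lost without the parental pair (-0.24, adjusted p = 0.103), without the c-Myc wild-type line (-0.24, adjusted p = 0.213) and without the day 5 sample of parental replicate 2 (-0.26, adjusted p = 0.0745) or of c-Myc wild-type ESCs (-0.26, adjusted p = 0.0977). The second Fn1 probe set gave -0.23 (adjusted p = 0.237 where it stood for the gene).

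Zeb1 (chr18:5591327-5775468) read 8.98, 8.18 and 7.46 on days 0, 2 and 5 in c-Myc wild-type ESCs, 8.90, 8.59 and 7.95 in T58A ESCs, and 8.78, 7.69 and 6.98 in parental replicate 2. All 6 treated samples were below all 3 untreated ones. The change was -0.73 ± 0.16 at day 2 (adjusted p = 0.0118) and -1.42 ± 0.16 at day 5 (adjusted p = 0.000465). The day 2 call was lost without the c-Myc wild-type line (-0.70, adjusted p = 0.11) and without the parental day 2 sample (-0.65, adjusted p = 0.0538). A second Zeb1 probe set, above the filter in 13 samples, fell by 1.63 at day 5. Another, above it in all 18, did not pass, with -0.09 ± 0.12 at day 2 (adjusted p = 0.601) and -0.33 ± 0.12 at day 5 (adjusted p = 0.0529), so the Zeb1 call depends on the probe set, and the last was never above the filter. Zeb2 stayed between 3.80 and 5.13 in all samples, near the filter, with a day 5 change of -0.05 ± 0.10 (adjusted p = 0.724). Its next probe set, above the filter in 5 samples, gave -0.44 ± 0.28 (adjusted p = 0.238).

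Between day 2 and day 5, 3 of 10 members passed, Cdh2 (0.44 ± 0.07, adjusted p = 0.0359), Epcam (0.46 ± 0.08, adjusted p = 0.0416) and Itga1 (1.24 ± 0.22, adjusted p = 0.0397), all higher at day 5, where 2.35% of all genes passed, 1.23% higher. These calls rest on the full set of 9 samples: the count was 0 after leaving out either c-Myc line or any 1 treated sample other than the parental day 2 sample. Without that sample Cdh2 (adjusted p = 0.0523) and Epcam (adjusted p = 0.0527) were lost, and Itga1 stayed with Cdh3 (adjusted p = 0.0345) beside it. Without the parental line Cdh3 passed as well (adjusted p = 0.03). Efnb2 differed by 0.11 ± 0.16 between the days (adjusted p = 0.728) and Zeb1 by -0.69 ± 0.16 (adjusted p = 0.0659).

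How parental ESCs, and the lines labelled as c-Myc overexpressing, each responded at day 5 was tested in 8 serum samples that include parental replicate 1, with the pair as a block and 13405 genes. In parental ESCs 2 of 10 members passed, both higher, against 0.53% of all genes, 0.112% higher: Itga1 by 2.33 ± 0.13 (SE, n = 2 pairs) and Efnb2 by 2.18 ± 0.11, each with an adjusted p of 0.0396. Of these Itga1 lay below the filter untreated, at 3.36 and 4.08, which leaves Efnb2 as the 1 called member measured on both sides. In the c-Myc lines 4 passed, all higher, against 2.62% of all genes, 1.09% higher: Itga1 by 2.44 ± 0.13 (adjusted p = 0.031), Efnb2 by 1.28 ± 0.11 (adjusted p = 0.0376), Epcam by 1.31 ± 0.14 (adjusted p = 0.0399) and Cdh2 by 1.37 ± 0.17 (adjusted p = 0.0439). Both counts were 0 without either c-Myc line. The parental count was 7 without parental replicate 1 and 4 without replicate 2, and the c-Myc count was 8 without either parental pair.

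The parental replicates were far apart for several members before treatment. Cdh2 read 7.28 and 9.60 in parental ESCs at day 5 (8.44 ± 1.64, SD, n = 2) and 5.49 and 8.38 in untreated parental ESCs (6.94 ± 2.04), so the groups overlap although both pairs were higher, by 1.79 and 1.22. In untreated cells replicate 2 exceeded replicate 1 by 2.89 for Cdh2, by 1.61 for Efnb2, by 1.29 for Zeb1 and by 1.19 for Zeb2, and these replicates lie on the 2 scales noted above. By that measure 4 of 9 members measured were at least 2-fold higher in replicate 2, against 11.2% of all genes. Epcam read 11.62 and 12.57 in parental ESCs at day 5 and 10.96 and 11.53 untreated.

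Zeb1 fell by 1.80 in parental replicate 2 and by 0.28 in replicate 1, where it was at 7.20 at day 5 and 7.49 untreated, and the parental change did not pass (-1.04 ± 0.39, adjusted p = 0.229). Without replicate 1 it did (-1.80, adjusted p = 0.0074). For Cdh1 the parental change did not pass (0.30 ± 0.14, limma adjusted p = 0.284). Cdh1 in replicate 1 was at 11.86 at day 5 and 11.75 untreated, and Cdh3 was at 6.79 in both. In that replicate 3 of 9 members measured were at least 2-fold higher, Efnb2, Itga1 and Cdh2, against 0.664% of its genes.

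The lines labelled c-Myc, whose Myc probe set was no higher than in parental replicate 2 at day 5, and parental ESCs were then compared in their day 5 changes. None of the 10 members passed limma's test, nor did any of 13405 genes, of which 457 had an unadjusted p under 0.05. The change of Efnb2 was 1.30 and 1.26 in c-Myc wild-type and T58A ESCs, and parental ESCs had 2.26 and 2.09, a difference of -0.90 ± 0.16 (unadjusted p = 0.00323, limma adjusted p = 0.996). Vim changed by -0.55 and -0.73 in the c-Myc lines and by 0.09 and 0.37 in parental ESCs, a difference of -0.87 ± 0.18 (unadjusted p = 0.00639, limma adjusted p = 0.996), and its other 2 probe sets gave -0.57 to -0.81 in the c-Myc lines and 0.01 to 0.69 in parental ESCs. Cdh1 changed by 0.95 and 0.82 in the c-Myc lines and by 0.12 and 0.48 in parental ESCs, a difference of 0.59 ± 0.20 (unadjusted p = 0.0337, limma adjusted p = 0.996). Without parental replicate 2, 4 members passed the difference, Efnb2 (-0.99, adjusted p = 0.0297), Cdh1 (0.77, adjusted p = 0.0445), Cdh3 (0.71, adjusted p = 0.0472) and Vim (-0.73, adjusted p = 0.0499), in a fit that rests on 1 parental pair.

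The c-Myc lines also started from other levels than parental ESCs of the same array set, with 1 sample each and no test. Untreated c-Myc wild-type and T58A ESCs were below untreated parental replicate 2 by 1.26 and 1.69 for Cdh2, by 0.72 and 0.80 for Cdh1 and by 0.58 and 0.91 for Epcam. Differences larger than that of Cdh2 were found for 0.33% and 0.243% of genes. Cdh2 was thereby at least 2-fold lower in both, as 1 of 9 members measured, against 0.668% and 1.46% of genes. The gap in Cdh1 was narrower at day 5, when both c-Myc lines (wild type 12.24, T58A 12.03) were still below parental replicate 2 (12.49).

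**Figure D3:**
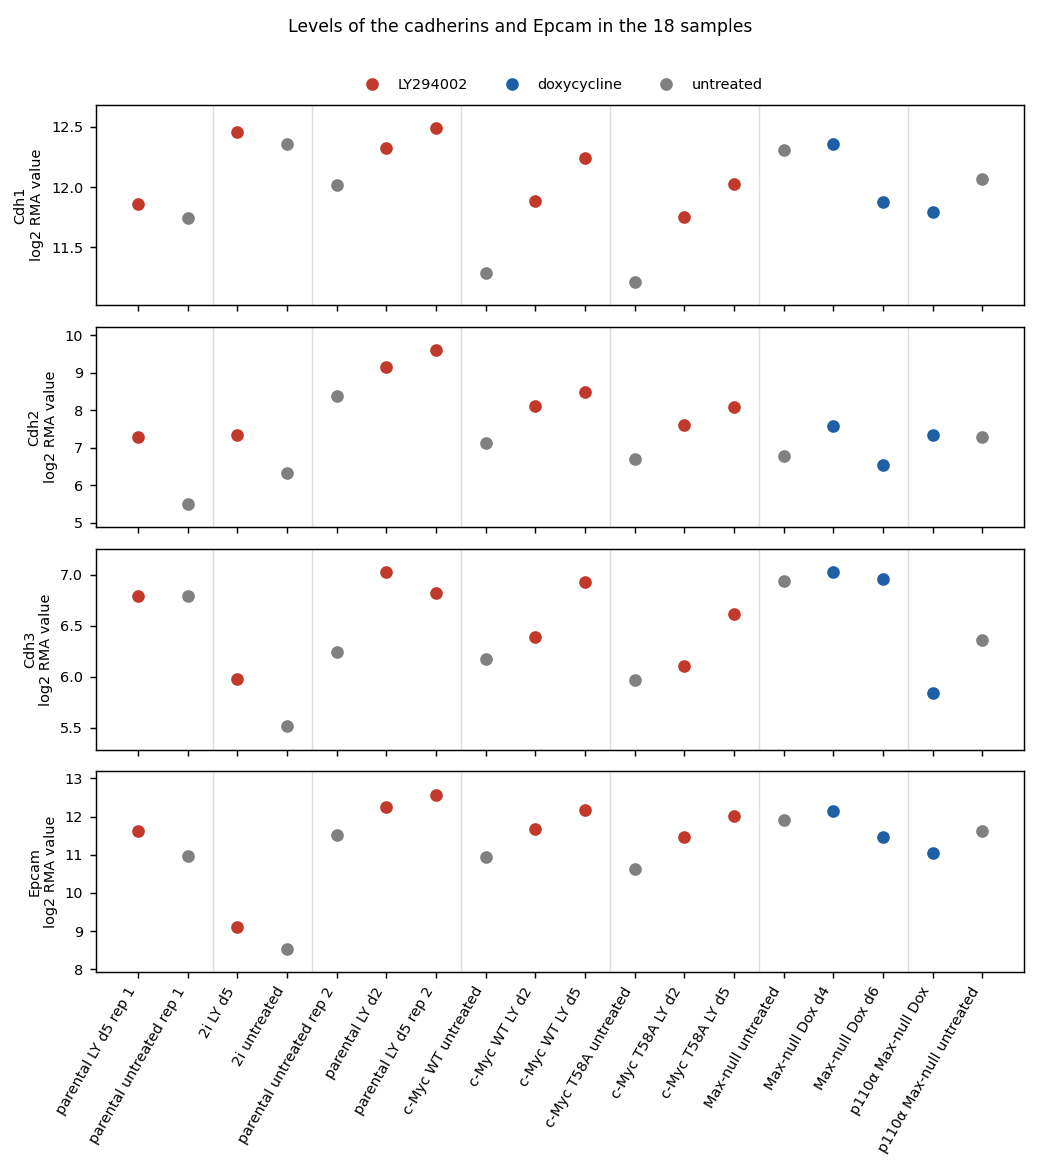
Log2 RMA values of Cdh1, Cdh2, Cdh3 and Epcam in each of the 18 samples, 1 point per array, with LY294002 in red, doxycycline in blue and untreated in grey, and vertical lines between lines or media. Epcam in 2i lies at 9.12 and 8.54, below every serum sample, and Cdh2 in untreated parental ESCs at 5.49 and 8.38.

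In 2i medium Cdh2 was at 7.32 with LY294002 and 6.32 without, a difference of 1.01, and it was the 1 member of 8 measured that was at least 2-fold higher, against 0.435% of genes. Efnb2 was at 6.13 and 5.36 (0.77) and Epcam at 9.12 and 8.54 (0.58) with and without LY294002. Itga1, at 3.35 and 3.07, stayed below the filter in 2i, where serum replicate 1 of the same array set had 5.70 at day 5 and 3.36 untreated. Set beside serum replicate 1, Efnb2 changed by 0.77 in 2i and 2.26 in serum and Cdh2 by 1.01 in 2i and 1.79 in serum. Epcam (0.58 in 2i and 0.66 in serum) and Cdh1 (0.10 and 0.12) had like changes in both media, those of Cdh3 (0.47 and 0.0016) and Vim (0.22 and 0.09) were larger in 2i, and Zeb1 gave 0.04 and -0.28. With 1 sample per group the difference between media has no replicate check.

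The 2i medium itself went with less Epcam and Cdh3 RNA. Untreated ESCs in 2i, set against untreated serum replicate 1, had 8.54 and 10.96 for Epcam, a 5.34-fold difference that 0.548% of genes exceeded, and 5.51 and 6.79 for Cdh3, a 2.42-fold difference. These 2 of 8 members measured were at least 2-fold lower, against 2.78% of genes. Cdh1 was at 12.36 in 2i and 11.75 in serum, Cdh2 at 6.32 and 5.49, and Fn1 at 12.80 and 12.31. Under LY294002 Epcam kept that gap, at 9.12 in 2i and 11.62 in serum, and Itga1 (3.35 and 5.70) and Efnb2 (6.13 and 7.95) also differed, so 3 of 9 members measured were at least 2-fold lower in 2i, against 2.57% of genes.

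Dox, which per the labels ablates Max, was followed in Max-null ESCs and in those labelled as overexpressing p110 alpha. Before Dox, Max-null ESCs were at least 2-fold below parental replicate 2 in 3 of 9 members measured, against 1.88% of genes: Zeb1 (6.81 and 8.78), Cdh2 (6.78 and 8.38) and Efnb2 (6.18 and 7.29). Cdh1 was at 12.36 on Dox day 4 and 11.88 on day 6, against 12.31 untreated, and Epcam at 12.15 and 11.46 against 11.91. Cdh2 was at 7.56 and 6.52 against 6.78, so it lay above the untreated sample on day 4 and below it on day 6, while its second probe set was higher on both days, by 0.78 and 0.55. Cdh3 lay within 0.09 of its untreated sample on both days. In the p110 alpha line Cdh1 was at 11.79 with Dox and 12.07 without, Epcam at 11.05 and 11.61, Cdh3 at 5.84 and 6.36 and Cdh2 at 7.33 and 7.28.

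Efnb2 had the largest change with Dox among the members. It was at 8.38 on day 4 and 8.80 on day 6 in Max-null ESCs, against 6.18 untreated, a difference of 2.19 and 2.62, and at 7.83 with Dox and 8.34 without in the p110 alpha line. Untreated p110 alpha cells thus already read 2.15 above untreated Max-null cells, a 4.45-fold difference that 0.469% of genes exceeded, and Efnb2 was the 1 of 9 members measured that was at least 2-fold higher there, against 1.34% of genes. The second Efnb2 probe set gave 1.64, 2.13 and -0.19 for the same Dox samples. Itga1 was at 4.30 and 4.87 in Max-null ESCs on days 4 and 6, against 3.77 untreated, and at 4.18 with Dox and 4.14 without in the p110 alpha line.

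**Figure D4:**
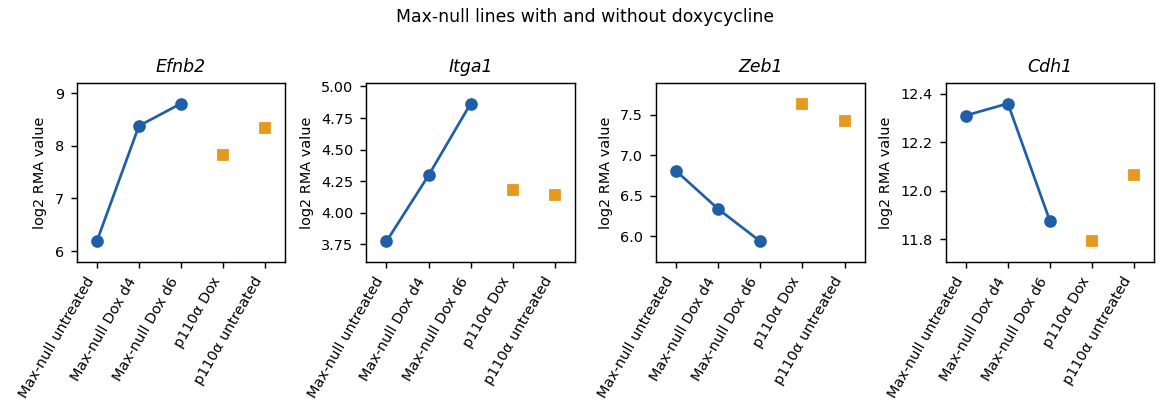
Log2 RMA values of Efnb2, Itga1, Zeb1 and Cdh1 in Max-null ESCs untreated and on Dox days 4 and 6 (blue, joined) and in p110 alpha Max-null ESCs with and without Dox (orange), 1 array per point, each panel on its own scale. Efnb2 is higher on both Dox days in Max-null ESCs and reads 8.34 in untreated p110 alpha cells.

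Zeb1 was at 6.34 and 5.94 in Max-null ESCs on Dox days 4 and 6, against 6.81 untreated, and at 7.64 with Dox and 7.43 without in the p110 alpha line. Its second probe set ran the other way in Max-null ESCs, by 0.37 and 0.45, as did the probe set above the filter throughout, by 0.22 and 0.44, so the direction of Zeb1 depends on the probe set. The main Fn1 probe set differed by 0.11 and -0.12, while the second was lower by 0.81 and 1.38, at 9.46 and 8.88 against 10.26 untreated. Vim was higher by 0.18 and 0.29.

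The Dox test took the 5 samples of both lines and counted days 4 and 6 of Max-null ESCs alike as Dox. None of 9 members tested passed it, nor did any of 13535 genes in limma, of which 701 had an unadjusted p under 0.05. The coefficient for Efnb2 was 1.16 ± 0.63 (adjusted p = 0.8). Without the p110 alpha line it was 2.41, in a fit of Dox days 4 and 6 against 1 untreated sample. The spread there is only that between the Dox days, and the lone untreated sample is assumed to vary like the others. At least 2-fold higher were 1 of 9 members measured on day 4, against 5.19% of genes, 2 of 10 on day 6, against 8.91%, of which Itga1 entered only through its Dox sample, and 0 of 9 in the p110 alpha line, against 1.55%. On day 6 these were Efnb2 and Itga1, and Itga1 was below 2-fold after quantile normalization. Of all genes that differed 2-fold on day 6, 36.4% were higher, and 23.3% once each array was centred on its median, which moves the median of all genes by -0.20, and on day 4 the share was 37.3%, and 47.6% after quantile normalization.

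Other epithelial genes moved with the members at day 5 in the 9-sample LY294002 course, though not in parental replicate 1. At day 5 in 3 lines, 17 of 26 tested genes of epithelial junctions and surface were higher and 2 lower, where 25.7% of all genes were higher and 18.5% lower, with a median of 0.66 where the median of all genes was 0.05. The largest were the keratin gene Krt18 (2.97 ± 0.34, adjusted p = 0.000566), which codes for a filament of simple epithelia, and the tight junction genes Cldn6 (2.28 ± 0.20) and Cldn7 (2.00 ± 0.16). At day 2 the same list had 7 higher and 4 lower, where 18.3% of all genes were higher and 12.3% lower. Between day 2 and day 5, 9 were higher and 0 lower, where 1.23% of all genes were higher and 1.12% lower. Of 8 epithelial regulators 3 rose and 1 fell at day 5, a share near the 44.1% of all genes that passed, among them Grhl2, a transcription factor of epithelial junction genes (1.86 ± 0.22), Esrp1, an epithelial splicing factor (1.64 ± 0.22), and Klf5 (-1.20 ± 0.15). Of 12 genes of catenins and adherens junctions 7 rose and 1 fell, led by the nectins Nectin2 (0.99 ± 0.08) and Nectin3 (0.62 ± 0.14) and by vinculin, Vcl (0.52 ± 0.08).

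**Figure D5:**
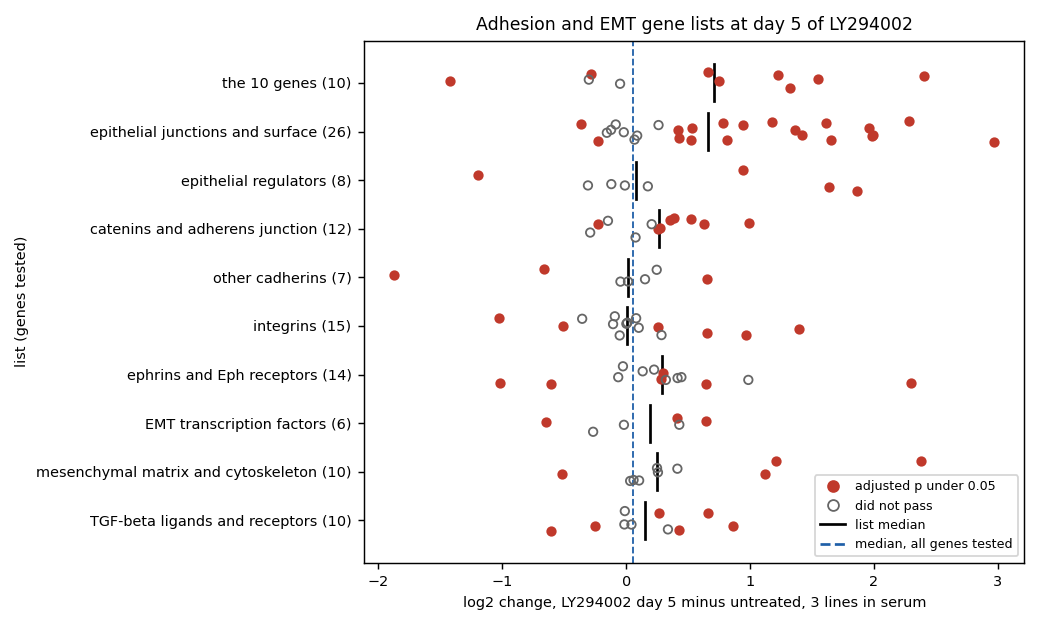
Log2 change at day 5 of LY294002 minus untreated in the 3 serum lines (x axis) for each gene tested of 10 lists (rows, with the number tested), filled where the adjusted p was under 0.05, with a black tick at the list median and a dashed line at the median of all genes, 0.05. Heights within a row are arbitrary. Most filled points of the epithelial junction list lie to the right, up to 2.97 (Krt18), and the integrin and EMT factor rows hold filled points on both sides.

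Other lists held genes called in both directions at day 5. In the test 44.1% of all genes passed, so counts near that share show nothing particular to a list. Of 6 EMT transcription factors besides Zeb1 and Zeb2, 2 rose and 1 fell: Snai1, which encodes Snail, a repressor of Cdh1 (-0.64 ± 0.12, adjusted p = 0.00451), Snai3 (0.64 ± 0.14) and Tcf3 (0.41 ± 0.08). Of 10 mesenchymal matrix and cytoskeleton genes 3 rose and 1 fell, among them Tagln (2.38 ± 0.41) and Acta2 (1.21 ± 0.31), both of actin-rich contractile cells, and the matrix gene Ccn2 (1.12 ± 0.20), while Sparc fell by 0.51. The other cadherins had 1 higher and 2 lower of 7, the largest being Cdh4, which encodes R-cadherin (-1.87 ± 0.15). Among 15 other integrins 4 rose and 2 fell, with Itga3 (1.39 ± 0.29), Itga9 (-1.03 ± 0.14) and Itga8 (0.97 ± 0.27) the largest. Itga8 lay below the filter untreated, at 4.14, 4.08 and 4.35 in c-Myc wild-type, T58A and parental replicate 2 ESCs. It entered only through treated samples, so it does not support the count, and its change is a difference from background. Among 14 other ephrins and Eph receptors 4 rose and 2 fell, with Epha1 (2.30 ± 0.17), Efna3 (-1.02 ± 0.16) and Ephb4 (0.64 ± 0.11) the largest. TGF-beta ligands, receptors and Smads had 4 higher and 2 lower of 10, led by Tgfbr2 (0.87 ± 0.21), Smad3 (0.66 ± 0.18) and Nodal (-0.61 ± 0.08).

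Parental replicate 1 did not show the epithelial list at day 5. There 1 of 26 genes was at least 2-fold higher, Cldn6 (1.33), and 1 lower, the desmoplakin gene Dsp (-1.29), with a median of -0.05, where 0.664% of genes were higher and 3.09% lower. In parental replicate 2, 15 of 26 were at least 2-fold higher and 0 lower, with a median of 1.15, led by Krt18 (4.21) and Krt8 (3.79), against 6.17% of genes higher. In 2i 0 of 26 were higher and 3 lower, against 0.435% and 2.23% of genes, with Krt19 (-1.72) and Krt8 (-1.20) the largest.

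Markers of other cell states moved with these results, and their part was not tested. Of 5 formative or primed epiblast markers tested, 4 rose at day 5 and 0 fell, led by Pou3f1 (3.60 ± 0.51), Lef1 (2.64 ± 0.19) and Dnmt3b (1.73 ± 0.13). Across both array sets the mean level of the 6 listed was 8.20 to 8.53 in serum at day 5 and 6.82 to 6.98 untreated in the same lines. Of 8 ESC markers 4 fell, led by Esrrb (-0.71 ± 0.10), and Utf1 rose by 1.02 ± 0.11. Feeder fibroblast markers had 2 higher of 5 tested, Acta2 and Pdgfrb (0.50 ± 0.12). Across both array sets their mean over 9 markers was 4.20 to 4.76 at day 5 and 4.18 to 4.44 untreated, with 3 to 5 above the filter in both. That mean fell from 4.44 to 4.20 in parental replicate 1 and rose from 4.18 to 4.76 in replicate 2. In c-Myc wild-type and T58A ESCs it was 4.47 and 4.45 at day 5, against 4.41 and 4.37 untreated. Of 4 neuroectoderm markers tested 2 rose and 1 fell, led by Sox1 (-2.30 ± 0.18), Map2 (1.63 ± 0.10) and Nes (0.71 ± 0.15).

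With Dox in Max-null ESCs the lists ran otherwise, in single samples without a test. On day 6, 8.91% of all genes were at least 2-fold higher and 15.6% lower. There 6 of 10 mesenchymal genes were at least 2-fold higher and 1 lower, led by Ccn2 (3.35) and Acta2 (3.00), and 3 of 6 EMT factors were higher and 1 lower, led by Snai1 (2.78) and Snai2 (1.73), which encodes Slug. Of 26 epithelial junction genes 3 were higher and 7 lower. Krt18 (2.95) and Krt8 (2.85) had the largest changes, and Ocln (-2.53) and Cldn7 (-2.36) the largest falls. Primitive endoderm markers had 6 of 7 measured at least 2-fold higher, led by Foxa2 (3.02) and Sox17 (1.72). Of these 6, Foxa2 (4.54), Pdgfra (4.17) and Dab2 (4.46) lay below the filter untreated. They entered only through the Dox sample, so they do not support the count. The mean over 9 primitive endoderm markers was 5.85 on day 4 and 6.35 on day 6 in Max-null ESCs, against 5.31 untreated. In the p110 alpha line it was 5.77 with Dox and 5.84 without. Feeder fibroblast markers had 3 of 6 measured higher and 0 lower, with Acta2, which is also in the mesenchymal list, and Col1a2 (1.73) the largest. Col1a1, counted in both lists, lay below the filter untreated, at 3.81, and entered only through the Dox sample. The feeder marker mean was 5.42 on day 6, the highest of the 18 samples, and 4.82 on day 4, against 4.71 untreated. The day 6 array also had the highest lower quartile, 4.08 against 3.76 untreated, and its part in that mean was not tested. Trophoblast markers had 2 of 4 higher and 1 lower, led by Tfap2c (-1.50) and Cdx2 (1.42), and neuroectoderm markers 2 of 4 higher and 1 lower, led by Zic1 (2.01) and Map2 (-1.97). Zic1 lay below the filter untreated, at 2.81, and entered its count only through the Dox sample. The part of these cell types in the list counts was not tested. In the p110 alpha line with Dox 1 of 25 epithelial junction genes was at least 2-fold higher (Dsc2, 1.54), 1 of 7 epithelial regulators was lower (Esrp1, -1.15), against 1.55% of genes higher and 0.445% lower, and 0 of 10 mesenchymal genes and 0 of 6 EMT factors differed so far.

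Across the 11 treated samples the changes of Cdh1 ran closest to those of Epcam among the members (Pearson r = 0.931, n = 11), and those of Cdh2 also to Epcam (r = 0.847). Zeb1 ran against Itga1 (r = -0.77) and Cdh3 (r = -0.707). Among 3601 genes whose changes had an SD of at least 0.5, those most like Cdh1 were Crybg3 (r = 0.938), Atp10a (0.936) and Gca (0.934), and those most like Cdh2 among 3600 were Gas2l3 (0.915), Ina (0.913) and Degs1 (0.888). Several of the 11 changes share an untreated sample, and r ignores an offset: Gas2l3 changed by -1.25 to 0.59. These r values describe the samples and were not tested.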

How the data were processed

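RNA of 18 samples was measured on 1 Affymetrix array each. Deposited values are log2 levels per probe set, summarised by the authors through RMA in the affy package, per the submitters' processing notes, with versions and settings not given in the sources used here. RMA pulls low values together, so fold changes near background may be understated.

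Of 45101 probe sets 64 were controls, 34958 named 1 gene, 932 several and 9147 none in the platform annotation, and 34754 were matched to RefSeq. Each gene took the probe set with the highest mean. Genes were tested with limma 3.58.1 (lmFit, eBayes; R 4.3.3) where at least 2 samples exceeded 4.64, with the line or pair as a block and Benjamini-Hochberg adjustment over all genes tested, 2-sided, threshold 0.05. Groups and pairs come from the labels, which name the reference sample of each treated sample. As a check, deviations of paired samples correlated over 13405 genes at r = 0.563 (parental replicates), 0.365 (parental replicate 2 and c-Myc wild type) and 0.172 (c-Myc lines). The parental replicates lie on the separate array scales noted above. Any difference of a gene between the scales enters both sides of the first r, so it cannot check their pairing. Single samples were compared without a test, at 2-fold. The number of arrays limits the precision. In simulated data with 2-fold changes 87.8% of changed genes were recovered at day 5 in the 9-sample design. The 8-sample design gave 39.2% in parental ESCs and 55.7% in the c-Myc lines, and the 5-sample Dox design gave 72.4%. These shares hold for the simulated spread only. In the real Dox fit the SEs of the members tested were 0.25 to 0.63 and no gene passed. The 72.4% therefore does not tell what the Dox test could find.

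All members are named. Of each list the up to 3 passing genes with the largest change are named, and in single samples the up to 2 largest of at least 2-fold. The 2 largest falls among junction genes on Dox day 6 are named as well. For Cdh1 and Cdh2 the 3 genes with the most alike changes are named. The members, lists, markers, tests and alternatives were chosen with earlier results of these data known. Alternatives changed the level filter, scaling, probe set, prior, block and samples. Listed genes without a single-gene probe set were not analysed here. Figures were drawn with matplotlib 3.10.9.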

Additional observations from a re-analysis of the deposited data

Results flagged for a closer look

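Dox moved 3 members one way in both Max-null samples and the other way in the p110 alpha Max-null sample, and these differences were not tested. Efnb2 changed by -0.51 in p110 alpha Max-null ESCs and by 2.19 and 2.62 in Max-null ESCs, a difference of -2.91 from their mean. Zeb1 changed by 0.21 in p110 alpha Max-null ESCs and by -0.47 and -0.87 in Max-null ESCs, a difference of 0.88, but its second probe set changed by -0.36 there and by 0.37 and 0.45. Cdh3 changed by -0.52 in p110 alpha Max-null ESCs and by 0.09 and 0.02 in Max-null ESCs, a difference of -0.57, and its day 6 value turns to -0.15 when arrays are centred on their median.

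With LY294002 at day 5, Vim was lower in both c-Myc lines and higher in both parental pairs, a difference of -0.87 that did not pass limma's test over all genes (adjusted p = 0.996; range over the alternatives 0.0499 to 1.00). Zeb1 differed by 0.04 in 2i and by -0.28 and -1.80 in serum, a difference of 1.09 from their mean that was not tested.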

How the results depend on the processing

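Of 209 member results that passed in the main analysis and were recomputed without leaving out samples, 189 kept direction and call and 20 lost the call. Of 407 that had not passed, 391 stayed, 8 came to pass and 8 turned direction. Without the pair or line block, the replicate block of this design, the members called numbered 2 at day 2 (main 6), 0 for day 5 against day 2 (3), 0 at day 5 in parental ESCs (2) and 1 at day 5 in the c-Myc lines (4). With the mean of all probe sets of a gene, 1 member was called for day 5 against day 2 (3), and the members at least 2-fold apart were 0 in 2i (1), 0 in parental day 2 (3), 0 in c-Myc wild-type day 2 (2), 3 in parental replicate 2 day 5 (5), 3 in c-Myc wild-type day 5 (5) and 1 in Max-null day 6 (2). Quantile normalization also gave 1 in Max-null day 6. 1 common day 5 change over 4 pairs gave 6 called members in place of 2 in parental ESCs.

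Leaving out 1 sample or pair at a time, the members called ranged from 3 to 6 at day 2, 0 to 4 for day 5 against day 2, 0 to 7 at day 5 in parental ESCs, 0 to 8 in the c-Myc lines, 0 to 4 for their difference and 0 to 1 for Dox.

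Directions turned in results that had not passed. With the probe set of largest variance Vim at day 2 was 0.082 (main -0.037), Fn1 at day 2 0.059 (-0.063), Zeb2 for day 5 against day 2 -0.15 (0.026) and Fn1 with Dox -0.71 (0.030). Fn1 with Dox was -0.013 with centred arrays and -0.34 with the mean of probe sets, where Zeb1 with Dox was 0.058 (-0.29), and Vim at day 5 in parental ESCs was -0.20 (0.23) as a common change. Leaving out samples gave -0.32 to 0.19 for Vim at day 2, -0.14 to 0.0039 for Zeb2 at day 2, -0.13 to 0.070 for Zeb2 at day 5 and -0.29 to 0.091 for Zeb2 in the c-Myc lines. For day 5 against day 2 it gave -0.12 to 0.27 for Efnb2, -0.077 to 0.14 for Zeb2 and -0.66 to 0.083 for Vim. For c-Myc against parental it gave -0.42 to 0.15 for Cdh2, -0.95 to 0.57 for Zeb1, -0.054 to 0.28 for Itga1 and -0.046 to 0.19 for Fn1. For Dox it gave -0.25 to 0.051 for Cdh3, -0.020 to 0.091 for Fn1, -0.14 to 0.069 for Zeb2 and -0.099 to 0.42 for Cdh2. The cause of these moves was not tested. Itga1 and Zeb2 lie near background, which limits their small differences.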
